A study of Homo sapiens with 4 samples.

Results

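The nuclear lamina and inner nuclear envelope genes described here were LMNB1, LMNB2, LMNA, LBR, EMD, TMPO, LEMD2, LEMD3 and BANF1, 9 of the 18398 rows measured, each row being 1 RefSeq transcript with its gene symbol. They were taken by gene symbol as members of 1 structure, around LMNB1, which was chosen by its RPKM under silencing, a value at least 2-fold lower after CDCA8 silencing in both cell lines. The LMNB1 values under silencing are therefore given as a description, with no test. The RNA came from the hepatocellular carcinoma (HCC) lines Huh1 and Huh7, both long in use as human cell lines, after transfection with NCsiRNA, a negative control that targets no endogenous transcript, or with an siRNA against CDCA8, a subunit of the chromosomal passenger complex that acts in mitosis. Per the methods of the study, siRNA was used at 15 nM, and the variant named CDCA8-1 was the one compared by sequencing. The treatment lasted 48 h. Each of the 4 conditions had 1 library, so no spread between cultures could be measured, and no genetic change beyond those the lines carry was made.

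The lamina is a meshwork of lamin filaments under the inner nuclear membrane. It has A-type lamins, which are products of LMNA, and B-type lamins, which are products of LMNB1 and LMNB2. Proteins of the inner membrane tie it to chromatin. The lamin B receptor LBR binds B-type lamins and heterochromatin and is also a sterol reductase, while emerin (EMD), the LAP2 proteins (TMPO), LEMD2 and LEMD3 share the LEM domain, which binds the small DNA-bridging protein BAF (BANF1). These parts are taken down when a cell enters mitosis and rebuilt around the chromosomes at its end, and loss of lamin B1 is a known feature of senescent cells.

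All values are RPKM, that is, read numbers divided by transcript length and by library size, and changes are differences of log2(RPKM + 1), which makes them slightly smaller than the plain RPKM ratio. The values of the libraries corresponded to between 12197606 and 13384836 reads, and the 9 genes rested on about 395 to 5631 reads each. Intervals at 95% cover the counting of reads only. CDCA8 itself was 24.1 RPKM with NCsiRNA and 5.86 RPKM with CDCA8siRNA in Huh1, and 51.5 and 7.36 RPKM in Huh7, the lowest log2 change of all rows in both lines. Of 9 hepatocyte markers, all were detected and ALB was between 721 and 3447 RPKM. Of 5 leukocyte markers, PTPRC stayed at or below 0.417 RPKM, while CD68 was 23.3 and 16.5 RPKM in Huh1 and 3.71 and 3.73 RPKM in Huh7. The endothelial marker CDH5 was listed at 0 in all 4 libraries. Among 6 fibroblast markers, COL1A1 was 0.115 and 0.122 RPKM in Huh1 but 107 and 125 RPKM in Huh7. In Huh7, COL1A2 was 31.4 and 56.9 RPKM and COL3A1 1.89 and 4.14 RPKM. DCN and PDGFRB stayed at or below 0.406 RPKM in all 4 libraries. LUM, of the same list, was 11.9 and 25.6 RPKM in Huh1 and 142.9 and 190 RPKM in Huh7, with NCsiRNA first (adjusted p = 0.0130 from limma). The markers moved with the siRNA as well. The summed RPKM of the hepatocyte markers, with ALB as the largest part, was 5215 with NCsiRNA and 4004 with CDCA8siRNA in Huh1, and 3308 and 2321 in Huh7. In limma 7 of these 9 fell and 0 rose, beside 4.21% of all rows lower and 6.03% higher. With CDCA8siRNA, AFP was higher in Huh1 (24.8 and 27.4 RPKM) and TTR in Huh7 (29.3 and 48.5 RPKM). For the fibroblast markers, nearly all LUM in Huh1, the sums were 12.1 and 25.9 in Huh1 and 284 and 377 in Huh7, and for the leukocyte markers, mostly CD68, 23.6 and 17.1 in Huh1 and 3.99 and 4.54 in Huh7. Their part in the results for the lamina was not tested.

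LMNB1 (NM_005573), the gene of lamin B1, was 51.6 RPKM with NCsiRNA and 23.5 RPKM with CDCA8siRNA in Huh1. In Huh7 it was 63.2 RPKM with NCsiRNA and 20.4 RPKM with CDCA8siRNA. Both CDCA8siRNA libraries thus lay below both NCsiRNA libraries. The RPKM ratio was 0.456 in Huh1 (95% counting interval 0.421 to 0.493) and 0.323 in Huh7 (0.297 to 0.351). The log2 change was -1.10 in Huh1 (95% counting interval -1.21 to -0.991) and -1.59 in Huh7 (-1.70 to -1.47). On this scale, which was used for the 2-fold call, the interval in Huh1 reached inside 2-fold. These changes were the 10th lowest of 10940 rows in Huh1 and the 12th lowest of 11565 rows in Huh7. LMNB1 was past 2-fold in each line by the rule that chose it, and no other gene of the 9 was past it in either line. Over all rows, 0.494% were past 2-fold in Huh1 (0.32% higher and 0.174% lower) and 1.57% in Huh7 (0.873% higher and 0.7% lower). Under quantile normalization the rows past 2-fold in Huh1 were 22 higher and 20 lower, in place of 35 higher and 19 lower. Being 2-fold lower in both lines was shared by 10 of 10357 rows (0.0966%), and since this selected LMNB1 nothing is read from it. Just inside that limit were NUSAP1 (log2 change -1.07 in Huh1 and -1.51 in Huh7) and CCDC115 (-1.04 and -1.57), and just outside it CEBPA (-0.987 and -1.16) and CCNC (-0.983 and -1.57). In bulk RNA, fewer cells that express LMNB1 and less LMNB1 RNA per cell cannot be told apart.

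**Figure D1:**
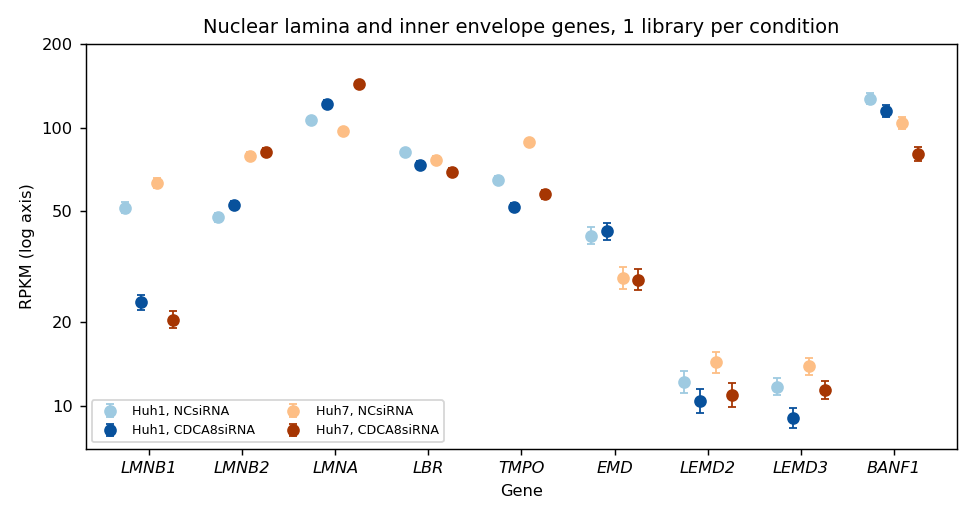
RPKM of the 9 genes in each of the 4 libraries on a log axis, where each point is 1 library and the bars are 95% counting intervals. LMNB1 is 51.6 and 63.2 RPKM with NCsiRNA and 23.5 and 20.4 RPKM with CDCA8siRNA, whereas LMNA is highest in Huh7 with CDCA8siRNA at 143.9 RPKM.

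LMNB1 lies on chromosome 5 of GRCh38 (126776623 to 126837020, plus strand) and its transcript has 11 exons and 2878 nucleotides. LMNB2 lies on chromosome 19 (2427638 to 2456996, minus strand) with 12 exons, and TMPO on chromosome 12 (98515512 to 98550379, plus strand) with 9 exons. The sequences just before their RefSeq promoter starts are shown because LMNB1 and TMPO were lower with CDCA8siRNA in both lines while LMNB2, the close relative of LMNB1, was not. They are RefSeq promoters of GRCh38.p14, 250 bases each, written 5′ to 3′ on the strand of the gene, with matches to CCAAT or TTTGAA on either strand in capitals. They lie at chr5:126776886-126777135 for LMNB1, chr12:98515323-98515572 for TMPO and chr19:2456960-2457209 for LMNB2. Positions below count from the promoter start. This start was 12 nucleotides from that of the measured transcript for LMNB1, 61 for TMPO and 37 for LMNB2. Printed bases may thus lie inside the measured transcript. The TMPO gene starts at 98515512, before the TMPO matches, so these lie inside the annotated gene although their positions are counted as before the promoter start.
LMNB1: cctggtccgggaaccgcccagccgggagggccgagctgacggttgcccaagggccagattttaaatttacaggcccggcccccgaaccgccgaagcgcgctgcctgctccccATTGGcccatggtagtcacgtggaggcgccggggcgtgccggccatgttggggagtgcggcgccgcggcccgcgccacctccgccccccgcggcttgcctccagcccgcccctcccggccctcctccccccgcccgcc
TMPO: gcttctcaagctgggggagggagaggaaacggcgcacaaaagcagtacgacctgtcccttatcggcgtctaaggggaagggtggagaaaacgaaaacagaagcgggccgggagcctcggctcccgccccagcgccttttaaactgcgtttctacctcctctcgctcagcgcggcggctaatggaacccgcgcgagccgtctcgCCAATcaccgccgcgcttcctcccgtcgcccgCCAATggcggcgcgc
LMNB2: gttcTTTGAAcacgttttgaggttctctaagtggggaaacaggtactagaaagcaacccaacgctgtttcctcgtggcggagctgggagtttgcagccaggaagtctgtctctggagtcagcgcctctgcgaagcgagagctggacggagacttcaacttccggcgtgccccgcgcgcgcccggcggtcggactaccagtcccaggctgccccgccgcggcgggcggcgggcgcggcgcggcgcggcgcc

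In windows of 300 bases around the start (250 before and 50 after), CCAAT was found once for LMNB1, at position -138 from the start, and at -47 and -15 for TMPO. It had no match for LMNB2, but it was also found at -224 and -115 for EMD, whose level differed little with the siRNA, and at -100 for LEMD3. The CHR word TTTGAA, known from genes of mitosis, was found for LMNB2 at -246 but not for LMNB1 or TMPO, and the E2F words TTTCCCGC, TTTGGCGC, TTTGCCGC and TTTCGCGC were found for none of these. Of the 9 genes, 5 had a window starting within 100 bases of the transcript measured, the others being EMD and LEMD3, and of these LEMD3 held TTTCCCGC at -134. The GC box GGGCGG, which is not in capitals above, had 4 matches for LMNB1 and 1 each for TMPO and LMNB2. Across 35116 promoter windows, 34.6% held CCAAT, 15.2% held TTTGAA, 45% held GGGCGG and 3.31% held an E2F word. Both strands were searched, and the words in capitals shared no base.

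The other lamin genes did not follow LMNB1. LMNB2 (NM_032737) was 47.6 RPKM with NCsiRNA and 52.7 RPKM with CDCA8siRNA in Huh1, a ratio of 1.11 (95% counting interval 1.05 to 1.16). In Huh7 it was 79.4 and 82.1 RPKM, with an RPKM ratio of 1.03 (0.993 to 1.08) that was not distinguishable from no change at this depth. Both Huh7 libraries lay above both Huh1 libraries for LMNB2. LMNA (NM_170707, chromosome 1 from 156082573 to 156140089, plus strand, 12 exons) was 106.5 RPKM with NCsiRNA and 122.0 RPKM with CDCA8siRNA in Huh1, and 96.9 and 143.9 RPKM in Huh7. Both CDCA8siRNA libraries were above both NCsiRNA libraries. The LMNA row carries the identifier of the lamin A transcript, and the files do not give lamin C, a product of the same gene, on its own.

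Testing the siRNA over both lines was possible only with the lines taken as pairs, in a limma model of all 4 libraries that had siRNA and line as terms and left 1 residual degree of freedom. The residual of a gene reflects how unlike its changes in Huh1 and Huh7 were, and not the spread between cultures. The limma prior, drawn from all rows tested, had 8.29 degrees of freedom. Standard errors and p-values thus rested more on that prior than on the residual of each gene. LMNA rose, with a log2 change of 0.38 (standard error 0.10, adjusted p = 0.0443 from limma), and the call for LMNA was lost under 4 of 7 alternative settings, where adjusted p reached 0.0583 with upper quartile scaling, 0.107 without the trend, 0.224 without the filter and 1 without the cell line covariate. LMNB2 did not pass, with a log2 change of 0.10 (standard error 0.09, adjusted p = 0.534 from limma).

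Per length, the LMNB1 share of the lamin transcripts was lower with CDCA8siRNA, while their sum moved little. The summed RPKM of LMNA, LMNB1 and LMNB2 was 205.7 with NCsiRNA and 198.2 with CDCA8siRNA in Huh1, and 239.5 and 246.4 in Huh7. The LMNB1 share of this sum was 25.1% with NCsiRNA and 11.9% with CDCA8siRNA in Huh1, and 26.4% and 8.28% in Huh7. The LMNA share was 51.8% and 61.6% in Huh1 and 40.5% and 58.4% in Huh7. For LMNB2 it was 23.1% and 26.6% in Huh1 and 33.1% and 33.3% in Huh7. Shares of a sum are bound together, so a fall of LMNB1 by itself raises the shares of LMNA and LMNB2. The LMNB1 to LMNA ratio of RPKM went from 0.485 (95% counting interval 0.460 to 0.511) to 0.193 (0.180 to 0.207) in Huh1. In Huh7 it went from 0.652 (0.619 to 0.688) to 0.142 (0.131 to 0.153). The control ratio was higher in Huh7 than in Huh1, and after silencing this order was turned. These shares include the LMNB1 values that chose the gene and are a description.

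**Figure D2:**
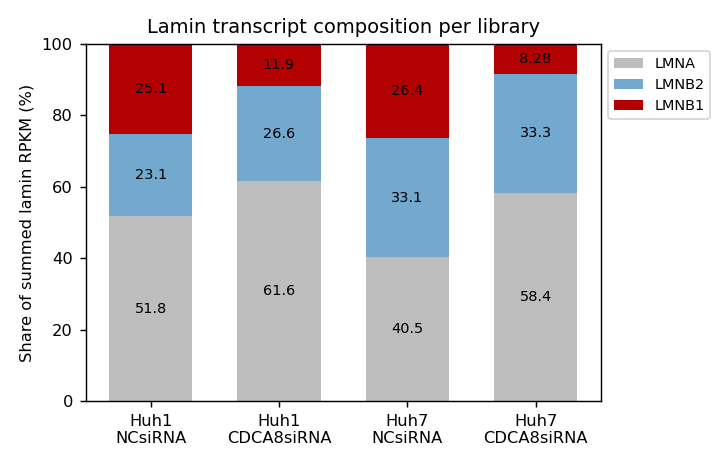
Share of LMNA, LMNB2 and LMNB1 in their summed RPKM, in percent, with 1 bar for each of the 4 libraries. The LMNB1 part is 25.1% and 26.4% with NCsiRNA and 11.9% and 8.28% with CDCA8siRNA, and the LMNA part is larger with CDCA8siRNA in both lines.

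Among the inner membrane genes, TMPO had the lowest change over both lines. TMPO (NM_001032283), the gene of the LAP2 proteins, was 64.8 RPKM with NCsiRNA and 51.9 RPKM with CDCA8siRNA in Huh1. In Huh7 it was 88.8 and 57.6 RPKM. The RPKM ratio was 0.801 in Huh1 (95% counting interval 0.763 to 0.841) and 0.648 in Huh7 (0.619 to 0.679). TMPO fell over both lines, with a log2 change of -0.47 (standard error 0.10, adjusted p = 0.0205 from limma). The call for TMPO was lost under 3 of 7 alternative settings, with adjusted p = 0.0566 without the trend, 0.174 without the filter and 1 without the cell line covariate. The TMPO transcript shares 542 bases with TMPO-AS1 on the opposite strand, and as the counting is not stated to use strand, reads of the pair cannot be told apart.

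LBR (NM_002296, chromosome 1 from 225401502 to 225428925, minus strand) was 81.6 RPKM with NCsiRNA and 73.7 RPKM with CDCA8siRNA in Huh1, and 76.4 and 69.4 RPKM in Huh7. Its RPKM ratios were nearly equal, 0.904 (95% counting interval 0.864 to 0.945) in Huh1 and 0.908 (0.866 to 0.953) in Huh7. The counting intervals lay below 1 in both lines, but LBR did not pass over both lines, with a log2 change of -0.14 (standard error 0.08, adjusted p = 0.330 from limma).

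The 3 other LEM-domain genes had lower levels than TMPO in all 4 libraries. EMD (NM_000117, chromosome X from 154379197 to 154381523, plus strand), which encodes emerin, was 40.9 and 42.5 RPKM in Huh1 and 28.8 and 28.4 RPKM in Huh7, with NCsiRNA first. A change of EMD was not detectable at this depth, with ratio intervals of 0.940 to 1.15 in Huh1 and 0.869 to 1.12 in Huh7 (adjusted p = 0.928 from limma). LEMD2 (NM_181336, chromosome 6 from 33771202 to 33789136, minus strand) was 12.2 and 10.4 RPKM in Huh1 and 14.3 and 10.9 RPKM in Huh7. LEMD3 (NM_014319, chromosome 12 from 65169571 to 65248327, plus strand), the gene of MAN1, was 11.7 and 9.004 RPKM in Huh1 and 13.9 and 11.4 RPKM in Huh7. Both LEMD2 and LEMD3 were lower with CDCA8siRNA than with NCsiRNA within each line, but neither passed over both lines (adjusted p = 0.125 for LEMD2 and 0.104 for LEMD3 from limma). LEMD3 passed with quantile normalization (adjusted p = 0.0491 from limma).

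BANF1 (NM_003860, chromosome 11 from 66002079 to 66004149, plus strand), the partner of the LEM domain, was 127.1 RPKM with NCsiRNA and 114.9 RPKM with CDCA8siRNA in Huh1, and 104.0 and 80.2 RPKM in Huh7. The ratio was 0.904 (95% counting interval 0.847 to 0.964) in Huh1 and 0.772 (0.714 to 0.834) in Huh7. BANF1 did not pass over both lines, with a log2 change of -0.26 (standard error 0.09, adjusted p = 0.102 from limma). The BANF1 transcript shares 98 bases with EIF1AD on the opposite strand, so reads of this pair cannot be told apart either.

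Of the 8 genes other than LMNB1, 1 rose and 1 fell over both lines, beside 10.2% of all rows that passed in the same limma model, 6.03% higher and 4.21% lower. Without LMNB1, whose fall chose it, the median log2 change of the 8 genes was -0.14 in Huh1 and -0.199 in Huh7, beside medians of 0.0231 and 0.0328 over all rows. Values were lower with CDCA8siRNA for 5 of these 8 genes in Huh1 and for 6 of 8 in Huh7. Beside this, 44.9% and 45.5% of all rows were lower and 55.1% and 54.5% higher. The lower value of EMD in Huh7 (log2 change -0.0198, 95% counting interval -0.196 to 0.156) was within the counting of reads.

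**Figure D3:**
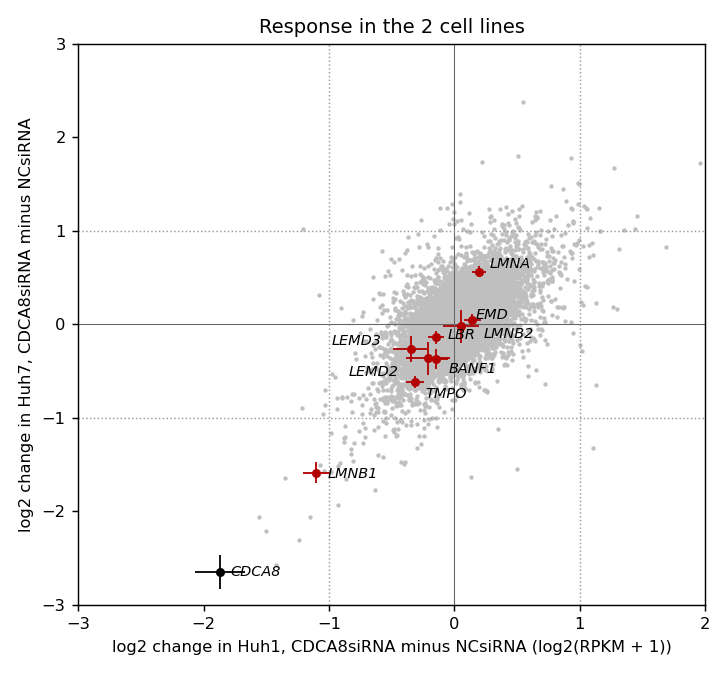
Log2 change with CDCA8siRNA in Huh1 (horizontal axis) and Huh7 (vertical axis), with all rows in grey, the 9 genes in red and CDCA8 in black; bars are 95% counting intervals and dotted lines mark 2-fold. LMNB1 at -1.10 and -1.59 lies past 2-fold on both axes, and TMPO at -0.31 and -0.62 and LMNA at 0.19 and 0.57 lie inside it.

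The response was larger in Huh7 for several of the genes. The SD of the log2 change over all rows was also larger there, 0.347 in Huh7 and 0.261 in Huh1. The share of all rows with a larger response in Huh7 was not computed, so this is not shown to be particular to these genes. For LMNB1 the log2 change in Huh7 minus that in Huh1 was -0.48 (95% counting interval -0.64 to -0.32). It was -0.30 for TMPO (-0.40 to -0.21), -0.22 for BANF1 (-0.37 to -0.08) and 0.37 for LMNA (0.29 to 0.45). For LBR it was 0.01 (-0.09 to 0.10), so the lines were not distinguishable at this depth. The intervals also held 0 for EMD, LEMD2 and LEMD3, and for LMNB2 the difference was -0.10 (-0.19 to -0.004). CDCA8 itself had a difference of -0.78 (-1.05 to -0.51). The SD of this difference over all rows was 0.273, and with 1 library per condition the difference between the lines could not be tested against cultures.

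With the RPKM as deposited, all 9 genes differed between Huh1 and Huh7 with NCsiRNA by more than the counting of reads, but by less than 2-fold. The share of all rows that did so was not computed. With quantile normalization the log2 difference was 0.0993 for LEMD2 and 0.108 for LEMD3, both within the 95% counting spread. LEMD2 was also within it with upper quartile scaling, at 0.151. With NCsiRNA, no gene of the 9 was 2-fold apart between the lines, beside 27.2% of all rows, with 2028 rows (17%) higher and 1211 rows (10.2%) lower in Huh7, or 1644 and 1504 with quantile normalization. Of the 9 genes 5 were higher and 4 lower in Huh7, beside 57.2% and 42.8% of all rows. That normalization moved the median of all rows from 0.140 to -0.000573. LMNB2 had the largest ratio of Huh7 to Huh1, 1.67 (95% counting interval 1.59 to 1.75), followed by TMPO with 1.37 (1.31 to 1.43). EMD had the lowest ratio, 0.706 (0.629 to 0.791). LMNB1 was 1.23 (1.15 to 1.30), LBR 0.937 (0.895 to 0.980) and LMNA 0.910 (0.872 to 0.950).

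In the limma fit over both siRNAs, 5 of the 9 genes differed between the lines, beside 67.7% of all rows (39.1% higher and 28.7% lower in Huh7). LMNB2 was higher in Huh7, with a log2 difference of 0.68 (standard error 0.09, adjusted p = 9.02e-05 from limma). EMD was lower in Huh7 by limma, at -0.53 (standard error 0.09, adjusted p = 0.000707), as was BANF1, at -0.40 (standard error 0.09, adjusted p = 0.00285). TMPO was higher at 0.30 (adjusted p = 0.0224 from limma) and LEMD3 at 0.27 (adjusted p = 0.0466 from limma). The calls for LMNB2 and EMD held under all 7 alternatives, while those for TMPO, LEMD3 and BANF1 were lost under 3, 4 and 1 of them. LMNB1 at 0.05, LMNA at 0.05, LBR at -0.09 and LEMD2 at 0.14 did not pass (adjusted p = 0.749, 0.668, 0.364 and 0.272 from limma).

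By level per length, BANF1 was the highest of the 9 genes in both NCsiRNA libraries and LMNA in both CDCA8siRNA libraries. LMNB1 had rank 5 of the 9 genes by RPKM in Huh1 and rank 6 in Huh7 with NCsiRNA, and rank 7 in both lines with CDCA8siRNA, above LEMD2 and LEMD3 alone. In Huh1 with NCsiRNA, 92.3% of all rows were below LMNB1, and in Huh7 with CDCA8siRNA 78.8% were. LEMD2 and LEMD3 differed in level by 0.67 counting SD in Huh1 and 0.564 in Huh7 with NCsiRNA and by 0.712 in Huh7 with CDCA8siRNA, and could not be ordered there. LMNB2 and TMPO in Huh1 with CDCA8siRNA (0.602) and LMNB2 and BANF1 in Huh7 with CDCA8siRNA (0.679), and LMNB2 and LBR in Huh7 with NCsiRNA (1.68), could not be ordered either.

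Other genes of the nuclear envelope and of related pathways were read against the 10.2% of all rows called in the same limma model, 6.03% higher and 4.21% lower. Of 18 partners that passed the filter of 1 RPKM, among 23 measured, such as the nesprins, SUN proteins and torsin cofactors, 0 passed in limma in either direction, and 0 had an unadjusted p under 0.05. SYNE2, which encodes a nesprin, was 2.68 and 3.28 RPKM in Huh1 and 1.79 and 1.98 RPKM in Huh7, and TOR1AIP1, the gene of LAP1, was 13.2 and 11.7 RPKM and 16.2 and 14.6 RPKM, with NCsiRNA first. SYNE3, another nesprin, was 1.00 and 0.957 RPKM in Huh1 and 1.03 and 0.622 RPKM in Huh7. Of the 5 enzymes that farnesylate, cleave and methylate lamins, 0 passed in limma, with 1 under an unadjusted p of 0.05. It was ICMT, which methylates the lamin tail, at 15.9 and 19.4 RPKM in Huh1 and 33.5 and 43.5 RPKM in Huh7 (adjusted p = 0.0680 from limma). RCE1, a protease for the same tail, was 16.5 and 15.6 RPKM in Huh1 and 43.1 and 42.2 RPKM in Huh7.

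Of 7 kinases that act on lamins or BAF or at mitotic entry, 1 fell in limma. This was PLK1, a mitotic kinase, at 30.4 and 21.7 RPKM in Huh1 and 77.7 and 50.1 RPKM in Huh7, with a log2 change of -0.55 (standard error 0.09, adjusted p = 0.00938 from limma). CDK1, which phosphorylates lamins in mitosis, was 31.2 and 27.3 RPKM in Huh1 and 45.1 and 29.3 RPKM in Huh7 (adjusted p = 0.0603 from limma), and PRKCD was 8.44 and 11.3 RPKM and 10.8 and 12.4 RPKM. Of 31 nuclear pore genes, 1 rose and 2 fell in limma, a share of 9.68% that is near the 10.2% of all rows, with a median log2 change of 0.00131 in Huh1 and -0.189 in Huh7. NUP54, of the central channel, fell (log2 change -0.67, adjusted p = 0.0139 from limma), as did AHCTF1, the gene of ELYS, which seeds pores on chromatin after mitosis (-0.40, adjusted p = 0.0324 from limma). GLE1, an mRNA export factor, rose (0.49, adjusted p = 0.0241 from limma).

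Of 12 heterochromatin partners, 2 fell and 0 rose in limma (16.7%, beside 10.2% of all rows). HDAC3, a deacetylase, fell by 0.55 on the log2 scale (adjusted p = 0.0116 from limma), and CBX3, an HP1 protein, by 0.45 (adjusted p = 0.0244 from limma). SUV39H2, a histone H3 lysine methyltransferase, was 8.68 and 12.0 RPKM in Huh1 and 11.4 and 13.9 RPKM in Huh7 (adjusted p = 0.0783 from limma). Among 19 genes of cholesterol synthesis, the pathway that holds the sterol reductase step of LBR, 0 passed in limma and 6 had an unadjusted p under 0.05. TM7SF2, the other enzyme of that step, was 5.37 and 5.07 RPKM in Huh1 and 11.7 and 7.33 RPKM in Huh7 (adjusted p = 0.169 from limma). HMGCS1 was 77.8 and 119.2 RPKM in Huh1 and 267 and 276 RPKM in Huh7, and LSS was 19.3 and 23.9 RPKM and 28.5 and 36.9 RPKM.

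Since lamin B1 is known to vary with proliferation and senescence, lists of both were set beside it. Of 19 proliferation genes, 4 fell and 1 rose in limma (26.3%, beside 10.2% of all rows, 6.03% higher and 4.21% lower), with a median log2 change of -0.0652 in Huh1 and -0.240 in Huh7. PCNA, the replication clamp, fell by 0.99 on the log2 scale (adjusted p = 0.00785 from limma) and RRM2, which makes deoxynucleotides, by 0.47 (adjusted p = 0.0205 from limma). BIRC5, a partner of CDCA8 in the passenger complex, rose by 0.48 (adjusted p = 0.0450 from limma). MKI67, named after its values were seen, was 54.7 and 50.9 RPKM in Huh1 and 75.02 and 70.6 RPKM in Huh7.

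Of 12 genes tied to senescence or its secretions that passed the filter, among 19 measured, 4 rose and 1 fell in limma (41.7%, beside 10.2% of all rows). The median log2 change of these 12 genes was 0.422 in Huh1 and 0.306 in Huh7, and it was 0.396 over the 14 genes that passed the filter in Huh7. IGFBP7, 1 of these 14, passed only through the CDCA8siRNA library (0.665 RPKM with NCsiRNA and 1.175 with CDCA8siRNA). CDKN2B, a cyclin-dependent kinase inhibitor, was 8.81 and 19.1 RPKM in Huh1 and 5.02 and 13.5 RPKM in Huh7, with NCsiRNA first (adjusted p = 0.00120 from limma). CXCL8, a chemokine, was 7.01 and 24.7 RPKM in Huh1 and 84.9 and 151 RPKM in Huh7 (adjusted p = 0.00344 from limma), and CXCL1 was 0.744 and 1.24 RPKM in Huh1 and 57.6 and 97.8 RPKM in Huh7 (adjusted p = 0.0240 from limma). In Huh1, CXCL1 passed the filter only through the CDCA8siRNA library, where it was higher, so its place among the 4 that rose depends on that library. The other calls, named after their values were seen, were IGFBP3 among the higher genes and CDKN2A, the gene of p16, as the lower one, at 12.1 and 9.31 RPKM in Huh1 and 13.3 and 8.29 RPKM in Huh7. CDKN1A, also named afterwards, was lower in Huh1 (18.6 and 11.5 RPKM) and higher in Huh7 (3.66 and 5.63 RPKM). In all, 7 genes of the list were higher and 5 lower in Huh1, and 11 higher and 3 lower in Huh7, beside 55.1% and 54.5% of all rows higher. Of the 8 lists, none had a gene that was lower 2-fold in Huh1, beside 0.174% of all rows. Only PCNA was lower 2-fold in Huh7, beside 0.7% of all rows. With shares of all rows this low, nothing is read from these counts.

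**Figure D4:**
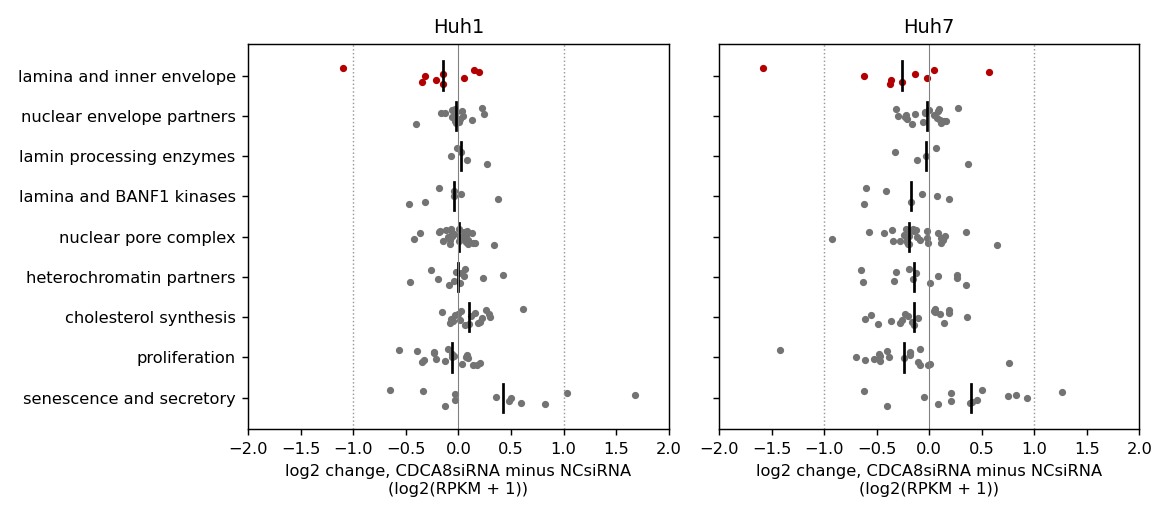
Log2 change with CDCA8siRNA of each gene (points) in the 9 lamina and inner envelope genes (red) and in 8 lists of related genes (grey), in Huh1 and Huh7; black bars are medians and dotted lines mark 2-fold. The lowest point in both lines is LMNB1, at -1.10 and -1.59, which was chosen by its fall, and the senescence and secretory list has the highest medians, 0.422 over 12 genes and 0.396 over 14.

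By the distance between profiles over the 4 libraries, after the mean of each gene was subtracted, the genes most like LMNB1 among 7208 others with at least 5 RPKM in every library were CCDC115, CCNC, CD46, C19orf56 and MRPL20. CCDC115 was at a distance of 0.0990, and its values were 13.1 and 5.86 RPKM in Huh1 and 17.6 and 5.26 RPKM in Huh7. CCNC, the gene of cyclin C, was at 0.232, with 38.2 and 18.9 RPKM in Huh1 and 56.8 and 18.4 RPKM in Huh7. CD46, a complement regulator, was at 0.338, C19orf56 at 0.345 and MRPL20, a mitochondrial ribosomal protein gene, at 0.432. The other lamina and inner envelope genes were not among them. The falls that chose LMNB1 are part of this profile, so the distance favors genes that fell in both lines. The nearest genes are therefore a description, and nothing is read from the likeness or from the absence of the other members.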

How the data were processed

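RNA of Huh1 and Huh7 cells with NCsiRNA or CDCA8siRNA was measured in 4 libraries, grouped by their titles. The authors deposited RPKM values without stating the unit, which was deduced from low values that fall on multiples of 1 read. The submitters' processing notes name hg19, CASAVA 1.8.2 and TopHat2 2.0.9. The counter and annotation are not given in the sources used here. Lengths, coordinates and exons came from GENCODE release 29 (GRCh38), matched by RefSeq identifier for all 9 genes. Read numbers, from RPKM, length and the value of 1 read, gave the counting intervals and are approximate. If the length used by the authors differed, the read numbers are off.

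Changes were computed over rows with at least 1 RPKM in 1 library of a pair and called at 2-fold. limma 3.58.1 in R 4.3.3 (lmFit, then eBayes with a trend, Benjamini-Hochberg over all rows, threshold 0.05) had siRNA and cell line as terms over rows passing in both lines. The resampling test named in the study's methods could not be repeated with 1 library per condition. Steps were tested on simulated data. Python 3.11.15 was used otherwise. Named genes were the 9 genes, CDCA8, the 5 nearest to LMNB1 and up to 3 per list with the largest mean absolute change in 1 direction. The genes and lists were chosen with earlier results of these data known. Alternatives were a pseudocount of 0.1 RPKM or none, no filter, a minimum of 5 RPKM, quantile and upper quartile scaling, no trend and fewer covariates.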

Additional observations from a re-analysis of the deposited data

Results flagged for a closer look

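EMD had a higher value with CDCA8siRNA in Huh1 (log2 change 0.0535) and a lower one in Huh7 (-0.0198), a difference of -0.0733 (95% counting interval -0.299 to 0.152), which is within the counting of reads. The difference was not tested against cultures.

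The medians of a few lists also had opposite signs in the lines. Huh7 minus Huh1, the difference of median log2 changes was -0.056 for the lamin processing enzymes, -0.19 for the nuclear pore genes and -0.25 for cholesterol synthesis. These differences were not tested.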

How the results depend on the processing

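LMNB1 stayed past 2-fold in both lines, and no other of the 9 genes reached it, under every alternative run for that comparison. The fold without a pseudocount was added after seeing the data, and its log2 changes for LMNB1 were -1.13 and -1.63. Of 198 single values of the 9 genes under alternatives, 193 stayed within their counting interval and 5 did not, all of the latter in Huh7 against Huh1 with NCsiRNA under quantile or upper quartile scaling. In limma, the number of the 8 other genes with a change over both lines (2) became 1 with upper quartile scaling and 0 without the filter, without the trend and without the cell line covariate, where 5, 5 and 0 had an unadjusted p under 0.05. The number that differed between the lines (5) became 3 without the filter and 2 without the siRNA covariate. List genes called by limma (16) became 27 with quantile normalization, 8 without the trend and 0 without the filter (30 unadjusted). Over all rows, limma calls for the siRNA (1061) became 0 without the filter (2615 unadjusted) and 0 without the cell line covariate (89 unadjusted). The cause of these losses was not tested. The limma difference between the lines changed sign for LMNB1 with quantile normalization (-0.0359) and upper quartile scaling (-0.00637), and for LMNA with the latter (-0.00283), none passing. With a pseudocount of 0.1 RPKM, rows past 2-fold rose from 35 to 107 higher and from 19 to 57 lower in Huh1, and from 101 to 269 higher and from 81 to 153 lower in Huh7. The siRNA comparison in limma was itself paired, by cell line, since the labels carry no replicate numbers, and no library could be left out since limma would have no residual degrees of freedom.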
